A study of Drosophila melanogaster with 6 samples.

Results

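Larvae of the third instar that carried the HP1b16 allele were compared by RNA-seq with yw control larvae, also of the third instar. HP1b16 is a deletion made by imprecise excision of a P element, and it removes much of the HP1b coding sequence, including the start codon. The allele was backcrossed into the yw background, so both groups carry the y and w mutations. It is 1 excision event kept as a homozygous stock, and the study describes an aberrant RNA from its HP1b locus. The comparison used 4 of the 6 libraries of the series, 2 labelled HP1b16/HP1b16 and 2 labelled yw, and left out the 2 libraries of HP1b86, another deletion allele, unless stated. Members of the comparison were the rows of the deposited table with a mean of at least 1 FPKM (fragments scaled to the length of the transcript and to the size of the library) over these 4 libraries, which held for 10887 of 16662 rows. Whole larvae were used, so fewer cells of a tissue and less RNA per cell cannot be told apart. Whether the 2 libraries of a genotype came from separately raised larvae is not given in the sources used here, so p-values measure only how far these libraries lie apart, which may be technical. The sex and number of larvae in a library, and their age within the instar, are not given in the sources used here. HP1b lies on the X, so any males in the HP1b16 libraries would carry a single copy of the allele.

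HP1 proteins bind methylated histone H3 through a chromodomain and recruit partners through a chromoshadow domain. HP1a, encoded by Su(var)205, is the founding member and sits mainly in heterochromatin, whereas HP1B is found in both heterochromatin and euchromatin. The third larval instar is the last feeding stage of the larva. During it the fat body stores fat, glycogen and serum proteins, the salivary glands make glue, and pulses of the steroid hormone ecdysone end feeding and start metamorphosis.

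HP1b, the gene that the allele deletes in part, had 2.55 and 3.13 FPKM in HP1b16 larvae, against 22.8 and 24.2 FPKM in yw larvae (log2 fold change -2.68, SE 0.13, adjusted p = 0.00458 from limma). Both HP1b16 libraries were well below both yw libraries, as their labels say, and a residual signal remained in each. The table holds 1 value per gene, so it does not show which part of HP1b these fragments cover. SE is the standard error of the log2 fold change. The log2 fold changes are of FPKM + 1, which makes changes of low genes smaller than in FPKM itself. HP1b was called with any 1 library left out, and its adjusted p from limma was 0.0585 with the HP1b86 libraries in the fit. In FPKM the mean of the HP1b16 libraries was 0.121 times that of the yw libraries. APC4, which encodes a subunit of the anaphase-promoting complex and lies next to HP1b, had 4.68 and 4.92 FPKM in HP1b16 larvae, against 4.05 and 3.55 FPKM in yw larvae and did not pass the test (adjusted p = 0.158 from limma). CG7246, the neighbour on the other side, had 4.71 and 5.23 FPKM in HP1b16 larvae, against 2.90 and 2.83 FPKM in yw larvae, a difference in the higher direction (log2 fold change 0.63, SE 0.12, adjusted p = 0.0333 from limma) that was called again without yw replicate 2 and not without any other library. Among the 33 other tested genes within 20 protein-coding genes of HP1b on either side, by their order on the X in Release 6, 4 were higher and 0 were lower, or 12.1% in all. Over all rows tested 21.6% were called, 13.8% higher and 7.82% lower, so the neighbours held no more calls than rows in general.

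Across all rows, 2351 of 10887 were called at an adjusted p under 0.05 from limma, which is 21.6%. Of these, 1500 were higher in HP1b16 larvae (13.8% of the rows tested) and 851 were lower (7.82%). The higher genes changed more, with a median log2 fold change of 1.39, against -0.85 among the lower genes. More than 8-fold changes on the FPKM + 1 scale were seen in 176 higher genes, and in 0 lower genes once rows with a library at 0 were set aside. The median of all rows tested was -0.10, and only 40.6% of rows were above 0, so most rows lay slightly below yw while the large changes lay above it. The calls were more frequent among abundant genes, from 13.8% of rows at 1 to 3 FPKM to 43.9% of rows at 100 FPKM or more. Between the same levels the share called higher rose from 8.74% to 33.7%, and the median log2 fold change from -0.24 to 0.21. The 2 genotypes did not overlap in 76.1% of rows, with 30% of rows above and 46.2% below both yw libraries, so the lack of overlap on its own says little with 2 libraries a group. It held for all 2351 called rows, so it adds nothing to a call.

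The balance of higher and lower calls depended on the scaling. Higher genes were 63.8% of the calls as reported, 27.8% with FPKM rescaled to TPM (1355 higher and 3512 lower), 48.4% with quantile normalization (1463 and 1559) and 75.6% with median-ratio scaling (1599 and 515). TPM moved the median log2 fold change of all rows by -0.22, giving -0.32, since the FPKM of the HP1b16 libraries summed to 768520.0 and 778651 and those of the yw libraries to 657936 and 654430.0. The median of all rows was -0.13 with quantile normalization and -0.01 with median-ratio scaling. Each median of a gene group stands against the median of all rows in the same setting, which was -0.10 as reported. The count also depended on single libraries. It was 154 without HP1b16 replicate 2, 653 without yw replicate 1, 1209 without HP1b16 replicate 1 and 3187 without yw replicate 2. It was 2 when the HP1b86 libraries entered the same fit, where 2621 rows had an unadjusted p under 0.05, against 4770 without them. The log2 fold changes are the same in that fit, and all 2351 called rows kept their direction. Only the estimate of spread differs, since it takes in the HP1b86 libraries.

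**Figure D1:**
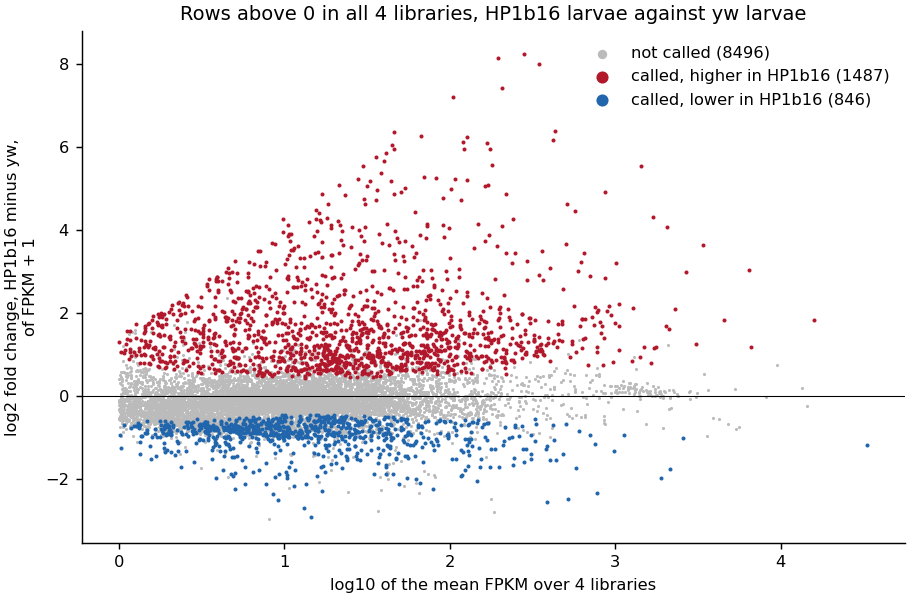
Each point is a row above 0 in all 4 libraries, with its mean level (log10 of FPKM, x axis) and its log2 fold change of FPKM + 1 (HP1b16 minus yw, y axis). The 1487 red points were called higher and reach 8.22, whereas the 846 blue points were called lower and reach -2.90.

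The libraries of a genotype were close to each other and spread along the same direction in which the genotypes differed. Pearson's r of log2(FPKM + 1) across rows was 0.975 within HP1b16 and 0.977 within yw, and it was 0.834 to 0.916 between genotypes, lowest for HP1b16 replicate 2 with yw replicate 1 and highest for HP1b16 replicate 1 with yw replicate 2. Of the 1500 higher genes, 89.5% were higher in replicate 2 than in replicate 1 of HP1b16, against 56.8% of all rows, and 70.7% were higher in replicate 2 than in replicate 1 of yw, against 42.7% of all rows. Of the 851 lower genes, 34.9% were higher in replicate 2 of HP1b16 and 17.3% in replicate 2 of yw. The table holds no read numbers. The commonest ratio to yw replicate 1 among its lowest values, shared by 20.6% to 23.0% of those rows, gives a rough relative depth of 0.813 and 1.32 for HP1b16 replicates 1 and 2, and of 0.790 for yw replicate 2. By this measure the deepest library was also the one that lay farthest out. The part of depth in the results was not tested.

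The 10 largest increases were of genes at no more than 13.3 FPKM in either yw library. Those under 1 FPKM in both yw libraries passed the filter only through their HP1b16 values. Cpr47Eg, a cuticle protein with a chitin-binding domain, had 228 and 895 FPKM in HP1b16 larvae, against 0.842 and 0.248 FPKM in yw larvae (log2 fold change 8.22, SE 0.68, adjusted p = 0.00865 from limma). Cpr67Fa1, of the same family, had 256 and 523 FPKM in HP1b16 larvae, against 0.218 and 0.387 FPKM in yw larvae (log2 fold change 8.14, SE 0.36, adjusted p = 0.00458 from limma). Cpr47Ec had 274 and 546 FPKM in HP1b16 larvae, against 1.13 and 1.43 FPKM in yw larvae. In these 3 genes each HP1b16 library was far above each yw library. CG8629 and CG5804, named Acbp4 and Acbp5 in RefSeq, encode acyl-CoA-binding proteins, which carry activated fatty acids. CG8629 had 558 and 1142 FPKM in HP1b16 larvae, against 5.45 and 13.3 FPKM in yw larvae (log2 fold change 6.38, SE 0.52, adjusted p = 0.00865 from limma). CG5804 had 559.7 and 1093 FPKM in HP1b16 larvae, against 9.34 and 10.3 FPKM in yw larvae (log2 fold change 6.18, SE 0.34, adjusted p = 0.00537 from limma). The pair lay on arm 3L, and as similar copies they may share reads. The other genes of the 10, all without a name in RefSeq, were CG11350, CG10953, CG30457, CG15597 and CG9757, with log2 fold changes of 7.98 for CG11350, 7.20 for CG10953, 6.35 for CG30457, 6.25 for CG15597 and 6.23 for CG9757. All 10 were called without any 1 library, except CG8629 without HP1b16 replicate 2.

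The 10 largest decreases among genes above 0 in every library were smaller, and they included several immune genes. CG43133 had 1.71 and 3.85 FPKM in HP1b16 larvae, against 28.5 and 23.9 FPKM in yw larvae (log2 fold change -2.90, SE 0.31, adjusted p = 0.0115 from limma), a larger change than that of HP1b itself. Dpt, which encodes the antibacterial peptide diptericin, had 2.19 and 1.67 FPKM in HP1b16 larvae, against 21.9 and 10.8 FPKM in yw larvae (log2 fold change -2.50, SE 0.34, adjusted p = 0.017 from limma). Drs, the antifungal peptide drosomycin, had 210.0 and 102 FPKM in HP1b16 larvae, against 1205 and 543 FPKM in yw larvae (log2 fold change -2.46, SE 0.53, adjusted p = 0.0398 from limma). CG15068, named BomS6 in RefSeq and a member of the Bomanin family of immune peptides, had 6.22 and 4.19 FPKM in HP1b16 larvae, against 28.8 and 28.4 FPKM in yw larvae (log2 fold change -2.28, SE 0.19, adjusted p = 0.00865 from limma). Tep1, a thioester-containing protein gene, had 1.62 and 0.666 FPKM in HP1b16 larvae, against 8.62 and 9.12 FPKM in yw larvae (log2 fold change -2.24, SE 0.24, adjusted p = 0.0121 from limma). Ddc, the dopa decarboxylase that makes dopamine for cuticle tanning, had 40.0 and 16.8 FPKM in HP1b16 larvae, against 162 and 95.8 FPKM in yw larvae (log2 fold change -2.22, SE 0.48, adjusted p = 0.0406 from limma). In Dpt, Drs and Ddc, yw replicate 1 was above yw replicate 2 and both stayed above the HP1b16 libraries. The other 3 genes were CG5391, CG2962 and CG2444, with log2 fold changes of -2.54 for CG5391, -2.35 for CG2962 and -2.32 for CG2444. HP1b, CG43133 and CG15068 were called without any 1 library. Of the 10 genes, 3 were called without HP1b16 replicate 2, 5 without yw replicate 1, 7 without HP1b16 replicate 1 and 10 without yw replicate 2.

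**Figure D2:**
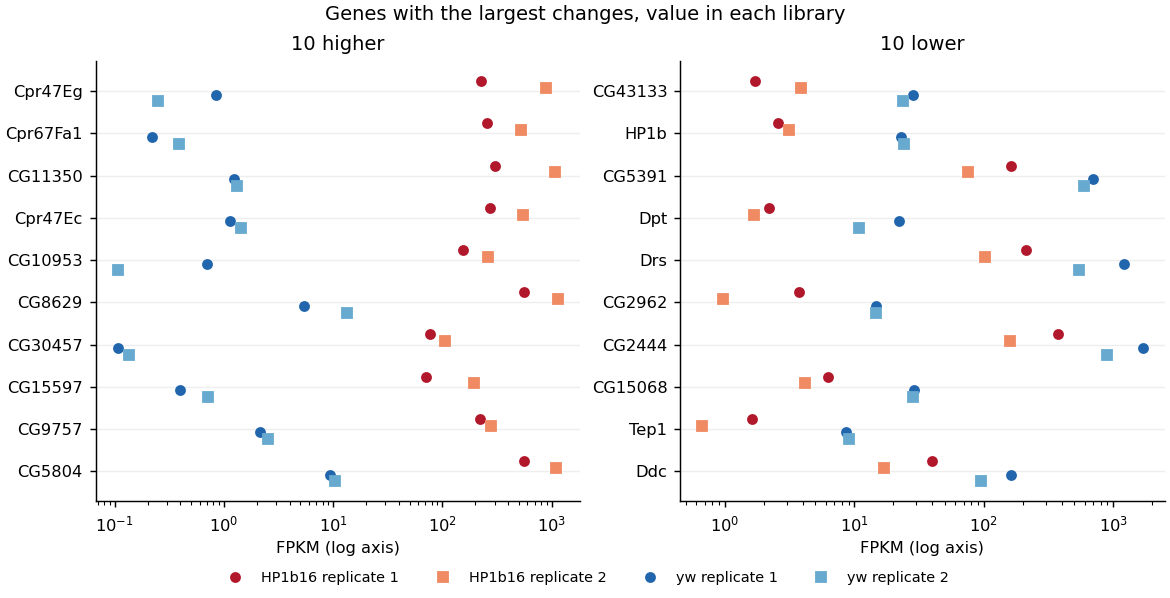
FPKM (log axis) of the 10 genes with the largest increases (left) and the 10 with the largest decreases (right) in each of the 2 HP1b16 libraries (red, orange) and the 2 yw libraries (blue). Each HP1b16 point lies right of both yw points on the left and left of both on the right, which the choice of these genes required. The gaps are wider among the increases.

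Genes of glycolysis and of sugar and glycogen use rose together. Of 23 tested genes of glycolysis, trehalose and glycogen, 17 were higher, 0 were lower and the median log2 fold change was 1.69, against -0.10 over all rows. The largest change was that of Gpo-1, the mitochondrial glycerol-3-phosphate dehydrogenase, with 55.3 and 87.3 FPKM in HP1b16 larvae, against 3.24 and 4.24 FPKM in yw larvae (log2 fold change 3.90, SE 0.26, adjusted p = 0.00643 from limma). Its cytosolic partner in the glycerol phosphate shuttle, Gpdh, had 359 and 549 FPKM in HP1b16 larvae, against 32.8 and 47.8 FPKM in yw larvae (log2 fold change 3.45, SE 0.29, adjusted p = 0.00885 from limma). Both HP1b16 values of either gene were several times both yw values. ImpL3, the lactate dehydrogenase, had 230.3 and 303 FPKM in HP1b16 larvae, against 41.7 and 52.1 FPKM in yw larvae (log2 fold change 2.48, SE 0.20, adjusted p = 0.00865 from limma). GlyP, the glycogen phosphorylase, had 275 and 289.6 FPKM in HP1b16 larvae, against 48.8 and 82.3 FPKM in yw larvae (log2 fold change 2.14, SE 0.27, adjusted p = 0.0152 from limma). The abundant glycolytic enzymes moved as a block. The 13 genes with a yw mean of 30 FPKM or more were called higher in all 13 cases, with log2 fold changes from 1.39 to 3.45. The genes below 0 were Pglym87, Hex-t1 and Hex-t2, the low paralogs of phosphoglycerate mutase and hexokinase, and none of these 3 passed. The list had 1 without HP1b16 replicate 2, 14 without HP1b16 replicate 1, 13 without yw replicate 1 and 18 without yw replicate 2 called higher, and its median stayed between 1.59 and 1.90 with any 1 library left out. Its distance from the median of all rows was 1.79 as reported, 1.80 under TPM, 1.51 under quantile normalization and 1.81 under median-ratio scaling.

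The Krebs cycle and the entry of pyruvate into it showed the highest share of calls. Of 22 genes, 20 were higher, 0 were lower, and all 22 lay above 0, from 0.46 to 1.90 with a median of 1.18. Mdh2, the mitochondrial malate dehydrogenase, had 282 and 436 FPKM in HP1b16 larvae, against 87.8 and 99.5 FPKM in yw larvae (log2 fold change 1.90, SE 0.25, adjusted p = 0.0154 from limma). kdn, the citrate synthase that opens the cycle, had 122 and 199.6 FPKM in HP1b16 larvae, against 48.8 and 37.3 FPKM in yw larvae (log2 fold change 1.85, SE 0.29, adjusted p = 0.0213 from limma). CG5261, named muc in RefSeq, encodes the E2 subunit of pyruvate dehydrogenase and had 95.4 and 142 FPKM in HP1b16 larvae, against 36.5 and 37.4 FPKM in yw larvae (log2 fold change 1.63, SE 0.22, adjusted p = 0.0164 from limma). CG1544 had 22.1 and 28.4 FPKM in HP1b16 larvae, against 7.94 and 7.92 FPKM in yw larvae (log2 fold change 1.55, SE 0.15, adjusted p = 0.0107 from limma). The genotypes did not overlap in these 4 genes, and HP1b16 replicate 2 was the highest library in each. The genes that did not pass were skap and Scsalpha, 2 subunits of succinyl-CoA synthetase, with adjusted p of 0.0793 and 0.0713 from limma. All 22 genes were higher in replicate 2 than in replicate 1 of HP1b16. Calls fell to 0 without HP1b16 replicate 2, 17 without HP1b16 replicate 1, 1 without yw replicate 1 and 13 without yw replicate 2, while the median stayed between 0.98 and 1.36.

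Changes in the respiratory chain differed with the level of the gene in yw, in the direction also seen over all rows. Among all rows, 23.3% at a 4-library mean of 30 to 100 FPKM were higher, and 33.7% at 100 FPKM or more. Of 27 tested genes of complexes III and IV with cytochrome c, 18 were higher and 1 was lower, with a median of 1.29. These 18 were exactly the genes with a yw mean of 30 FPKM or more, from 1.11 to 2.80 on the log2 scale. The other 9, at 2.73 to 21.9 FPKM in yw, all lay below 0, from -0.99 to -0.55, and 1 of them, CG44296, passed (log2 fold change -0.95, SE 0.17, adjusted p = 0.0277 from limma). The cut at 30 FPKM was chosen after the values were seen, so it is a description. It does not separate core subunits from paralogs of them, and whether the low genes are such paralogs was not tested. Cyt-c-p, the main cytochrome c gene, changed most, with 334 and 702 FPKM in HP1b16 larvae, against 68.8 and 68.7 FPKM in yw larvae (log2 fold change 2.80, SE 0.37, adjusted p = 0.0163 from limma). CG4769, named Cyt-c1 in RefSeq, had 118 and 208 FPKM in HP1b16 larvae, against 39.8 and 41.0 FPKM in yw larvae (log2 fold change 1.93, SE 0.29, adjusted p = 0.0203 from limma). CG4169 and CG3731, the core proteins UQCR-C2 and UQCR-C1 of complex III, had log2 fold changes of 1.55 and 1.52. ATP synthase behaved likewise, with 12 of 16 genes higher and 1 lower and a median of 1.33. The 12 genes at 30 FPKM or more in yw were all called higher, from 1.10 to 1.80, whereas 3 of the 4 genes under it lay below 0.

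ATPsyn-beta, the catalytic subunit, had 589.6 and 909 FPKM in HP1b16 larvae, against 208 and 209.9 FPKM in yw larvae (log2 fold change 1.80, SE 0.24, adjusted p = 0.0164 from limma), and blw, the alpha subunit, had 367 and 583 FPKM in HP1b16 larvae, against 137 and 133 FPKM in yw larvae (log2 fold change 1.77, SE 0.25, adjusted p = 0.018 from limma). ATPsyn-gamma and ATPsyn-b had log2 fold changes of 1.55 and 1.47. HP1b16 replicate 2 was the highest and HP1b16 replicate 1 the next in each of these 4 genes. Complex I, the first proton pump, had 24 of 35 genes higher and 1 lower, with a median of 1.00. Of its 27 genes at 30 FPKM or more in yw, 23 were called higher and none lay below 0, and of the 8 under that level 7 lay below 0. The other of the 8 was ND75, an iron-sulfur subunit, which was higher. It had 67.6 and 98.1 FPKM in HP1b16 larvae, against 29.1 and 24.7 FPKM in yw larvae (log2 fold change 1.57, SE 0.22, adjusted p = 0.0178 from limma). CG18624, l(3)neo18 and CG6020, named ND-MNLL, ND-SGDH and ND-39 in RefSeq, had log2 fold changes of 1.36, 1.24 and 1.23.

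The number of higher calls fell without HP1b16 replicate 2, yw replicate 1 or yw replicate 2, and did not fall without HP1b16 replicate 1. Lower calls in these lists became more frequent without yw replicate 2, so that leaving out a library did not only remove calls. Complex I had 0 without HP1b16 replicate 2, 25 without HP1b16 replicate 1, 0 without yw replicate 1 and 1 without yw replicate 2 called higher. Complexes III and IV had 1 without HP1b16 replicate 2, 18 without HP1b16 replicate 1, 0 without yw replicate 1 and 10 without yw replicate 2. ATP synthase had 0 without HP1b16 replicate 2, 12 without HP1b16 replicate 1, 1 without yw replicate 1 and 8 without yw replicate 2. The medians stayed above 0 throughout, between 0.76 and 1.26 for complex I, 1.01 and 1.55 for complexes III and IV, and 1.06 and 1.60 for ATP synthase. In complex I, 32 of 35 genes were higher in replicate 2 than in replicate 1 of HP1b16 and 1 of 35 in replicate 2 than in replicate 1 of yw. The mitochondrial ribosomal proteins showed the same order of libraries without a call. All 70 were higher in replicate 2 than in replicate 1 of HP1b16, 0 of 70 were called, and the median was 0.33. The cytosolic ribosomal proteins had 0 of 82 called, with a median of 0.10. Relative to the median of all rows this was 0.21 as reported, 0.19 under TPM and -0.05 under quantile normalization. RpLP1, an acidic protein of the ribosomal stalk, had 3725 and 3872 FPKM in HP1b16 larvae, against 3546 and 3298 FPKM in yw larvae.

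**Figure D3:**
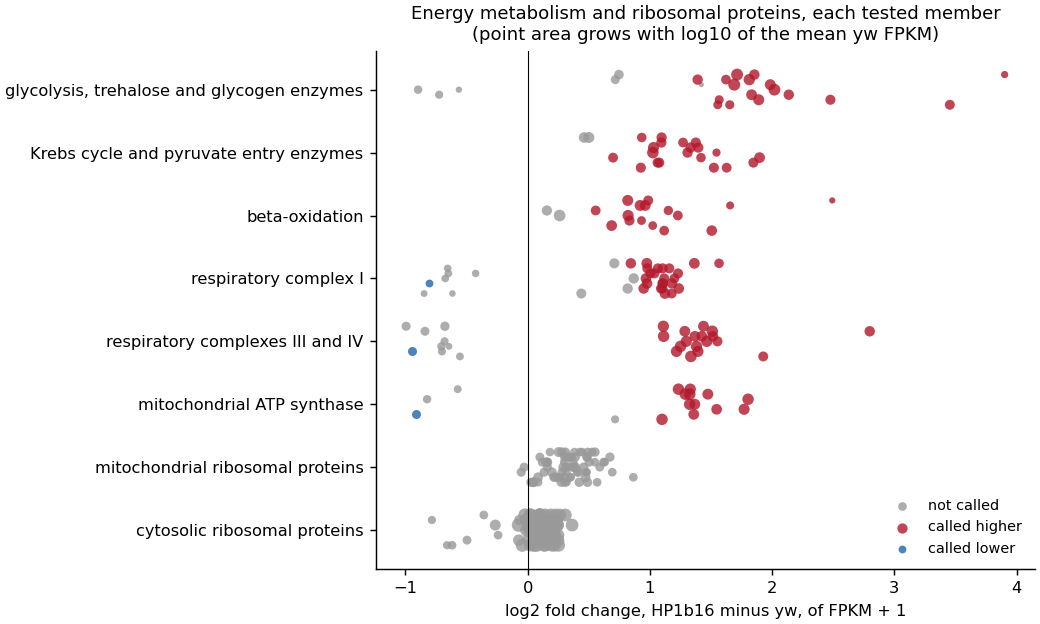
Log2 fold change of FPKM + 1 (HP1b16 minus yw, x axis) of each tested member of 8 gene lists (rows), with red for called higher, blue for called lower and a point area that grows with the log10 of the mean yw level. The large points of the respiratory chain and ATP synthase lie mostly near 1 to 2, most of their small points lie below 0, and no ribosomal protein was called.

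Genes of fat breakdown and of fat synthesis were both higher. Of 18 genes of beta-oxidation, 16 were higher, 0 were lower and all lay above 0, with a median of 0.95. Acox57D-d, an acyl-CoA oxidase of the peroxisome, had 11.5 and 20.1 FPKM in HP1b16 larvae, against 1.80 and 1.97 FPKM in yw larvae (log2 fold change 2.49, SE 0.27, adjusted p = 0.0121 from limma). Its neighbour Acox57D-p, Mfe2, a peroxisomal enzyme, and CG6543, the mitochondrial enoyl-CoA hydratase Echs1 of RefSeq, had log2 fold changes of 1.66, 1.23 and 1.51. The genes not called were whd, the carnitine palmitoyltransferase, and CG12262, at 0.16 and 0.26. Of 20 genes of fatty acid and triglyceride synthesis, 10 were higher and 0 lower, with a median of 0.77. CG4753, an acyltransferase named Agpat4 in RefSeq, had 38.5 and 81.6 FPKM in HP1b16 larvae, against 1.13 and 1.51 FPKM in yw larvae (log2 fold change 4.63, SE 0.37, adjusted p = 0.00865 from limma). CG3523, the fatty acid synthase FASN1, had 169.9 and 228 FPKM in HP1b16 larvae, against 21.2 and 32.2 FPKM in yw larvae (log2 fold change 2.86, SE 0.26, adjusted p = 0.00984 from limma). Men, the malic enzyme that supplies NADPH, had 188 and 240.0 FPKM in HP1b16 larvae, against 36.6 and 42.1 FPKM in yw larvae (log2 fold change 2.41, SE 0.18, adjusted p = 0.00769 from limma). ACC, the acetyl-CoA carboxylase that commits carbon to fatty acids, had 23.1 and 32.2 FPKM in HP1b16 larvae, against 5.82 and 5.95 FPKM in yw larvae (log2 fold change 2.04, SE 0.18, adjusted p = 0.00965 from limma). The genotypes were far apart in these 4 genes and each HP1b16 library was above each yw library. Beta-oxidation had 0 without HP1b16 replicate 2, 13 without HP1b16 replicate 1, 2 without yw replicate 1 and 9 without yw replicate 2 called higher, and fatty acid synthesis had 2 without HP1b16 replicate 2, 9 without HP1b16 replicate 1, 5 without yw replicate 1 and 9 without yw replicate 2.

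Of 11 lipid droplet, lipase, lipoprotein and yolk protein genes, 7 were higher and 1 was lower. mag, a lipase that the gut secretes, had 1255 and 1259 FPKM in HP1b16 larvae, against 242 and 367 FPKM in yw larvae (log2 fold change 2.07, SE 0.24, adjusted p = 0.0127 from limma). Seipin, a protein of lipid droplet formation, had 18.4 and 26.8 FPKM in HP1b16 larvae, against 2.57 and 2.88 FPKM in yw larvae (log2 fold change 2.64, SE 0.20, adjusted p = 0.00814 from limma). Apoltp, a lipid transfer particle gene, and Yp3, a yolk protein gene, had log2 fold changes of 2.59 and 3.04. The lower gene was Lsd-1, a perilipin of the droplet surface, with 453 and 413 FPKM in HP1b16 larvae, against 713 and 834 FPKM in yw larvae (log2 fold change -0.83, SE 0.15, adjusted p = 0.0307 from limma), named outside the rule. Of the 10 Niemann-Pick genes, which move sterols, 5 were higher and 0 lower. Npc1b, which takes up dietary sterol in the gut, had 13.0 and 19.5 FPKM in HP1b16 larvae, against 2.61 and 2.36 FPKM in yw larvae (log2 fold change 2.28, SE 0.21, adjusted p = 0.0103 from limma). Npc2d had 202 and 233 FPKM in HP1b16 larvae, against 30.8 and 45.6 FPKM in yw larvae (log2 fold change 2.50, SE 0.23, adjusted p = 0.00965 from limma). Npc2h and Npc2f had log2 fold changes of 2.62 and 1.19. Without HP1b16 replicate 2, 1 of the 11 and 0 of the 10 were called higher, without HP1b16 replicate 1 5 and 4, without yw replicate 1 2 and 2, and without yw replicate 2 5 and 5.

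Of 23 genes of amino acid catabolism, 14 were higher and 2 lower, with a median of 0.84. Gnmt, the glycine N-methyltransferase, had 387 and 319.8 FPKM in HP1b16 larvae, against 15.0 and 50.8 FPKM in yw larvae (log2 fold change 3.62, SE 0.58, adjusted p = 0.0225 from limma), with yw replicate 1 well under yw replicate 2. Gdh, the glutamate dehydrogenase, had 258 and 383 FPKM in HP1b16 larvae, against 62.3 and 85.0 FPKM in yw larvae (log2 fold change 2.10, SE 0.26, adjusted p = 0.0147 from limma). Got2, the mitochondrial aspartate aminotransferase, and CG11796, named Hpd in RefSeq, had log2 fold changes of 1.86 and 2.77. The lower genes were Gs1 and Gs2, the glutamine synthetases, named outside the rule. Gs1 had 299 and 261 FPKM in HP1b16 larvae, against 541 and 613 FPKM in yw larvae (log2 fold change -1.04, SE 0.15, adjusted p = 0.0191 from limma), and Gs2 had 209 and 205 FPKM in HP1b16 larvae, against 595 and 602 FPKM in yw larvae (log2 fold change -1.52, SE 0.13, adjusted p = 0.00865 from limma). Called higher were 0 without HP1b16 replicate 2, 8 without HP1b16 replicate 1, 2 without yw replicate 1 and 10 without yw replicate 2.

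Digestive enzymes of the larval gut were mostly higher. Of 7 tested lysozymes, which digest bacteria in the fly midgut, 5 were higher and 0 lower, and their summed level was 14674 and 13049 FPKM in HP1b16 larvae, against 1954 and 2316 FPKM in yw larvae. LysB had 4113 and 3622 FPKM in HP1b16 larvae, against 201 and 256 FPKM in yw larvae (log2 fold change 4.08, SE 0.19, adjusted p = 0.00458 from limma), LysD had 6468 and 6113 FPKM in HP1b16 larvae, against 475 and 536 FPKM in yw larvae (log2 fold change 3.64, SE 0.15, adjusted p = 0.00458 from limma) and LysC had 283 and 233 FPKM in HP1b16 larvae, against 24.3 and 18.0 FPKM in yw larvae (log2 fold change 3.56, SE 0.20, adjusted p = 0.00537 from limma). LysE had a log2 fold change of 3.35. LysX and LysP did not pass and lay below 0. The Lys genes of 3L are close copies, so reads may be split among them. Of 27 trypsins and Jonah proteases, 20 were higher and 0 lower, with a median of 1.26. lambdaTry had 26.2 and 59.4 FPKM in HP1b16 larvae, against 0.220 and 0.167 FPKM in yw larvae (log2 fold change 5.09, SE 0.39, adjusted p = 0.00814 from limma). betaTry, an abundant trypsin, had 856 and 1379 FPKM in HP1b16 larvae, against 102 and 129 FPKM in yw larvae (log2 fold change 3.23, SE 0.28, adjusted p = 0.00927 from limma). Ser6 and kappaTry had log2 fold changes of 4.72 and 3.98. Jon99Cii and Jon99Ciii were listed at 0 in HP1b16 replicate 2, at 2620.3 and 1934 FPKM in HP1b16 replicate 1 and at 878 to 1461 FPKM in the yw libraries.

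The maltases Mal-A1 to Mal-A4, which cleave dietary disaccharides, rose together. Mal-A1 had 86.6 and 86.8 FPKM in HP1b16 larvae, against 8.70 and 12.1 FPKM in yw larvae (log2 fold change 2.96, SE 0.18, adjusted p = 0.00585 from limma), and Mal-A3 had 23.0 and 58.7 FPKM in HP1b16 larvae, against 0.547 and 1.66 FPKM in yw larvae (log2 fold change 4.22, SE 0.52, adjusted p = 0.0139 from limma). Mal-A4 and Mal-A2 had log2 fold changes of 2.26 and 1.55. In the whole list of 15 carbohydrases and mannosidases, 5 were higher and 3 lower, and the median of 0.11 lay 0.22 above that of all rows, a distance of 0.20 under TPM and 0.01 under quantile normalization. The lower ones, named outside the rule, were Mal-A5 and CG5322 and LM408, named LManI and LManII in RefSeq, at -0.69, -1.15 and -0.69. Of 44 peritrophins, mucins and chitin enzymes, which build and remodel the lining of the gut and the cuticle, 22 were higher and 2 lower. Muc55B, a mucin, had 203 and 245 FPKM in HP1b16 larvae, against 5.78 and 9.72 FPKM in yw larvae (log2 fold change 4.72, SE 0.26, adjusted p = 0.00537 from limma). obst-E, a chitin-binding protein of the larval cuticle, had 129 and 214 FPKM in HP1b16 larvae, against 6.69 and 16.9 FPKM in yw larvae (log2 fold change 3.83, SE 0.48, adjusted p = 0.0145 from limma). Cht9, a chitinase, and Peritrophin-A had log2 fold changes of 3.46 and 2.57. The lower ones were Cht5 and Cht11, also chitinases, at -1.42 and -0.70. Trypsins and Jonah proteases had 4 without HP1b16 replicate 2, 14 without HP1b16 replicate 1, 6 without yw replicate 1 and 18 without yw replicate 2 called higher, lysozymes had 3 without HP1b16 replicate 2, 4 without HP1b16 replicate 1, 4 without yw replicate 1 and 5 without yw replicate 2, and peritrophins had 0 without HP1b16 replicate 2, 9 without HP1b16 replicate 1, 10 without yw replicate 1 and 24 without yw replicate 2. Of the list of carbohydrases, 0 were called higher without HP1b16 replicate 2.

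Families that process foreign and endogenous toxins showed many higher members. Of 60 tested genes of the cytochrome P450 list, 36 were higher and 3 lower, with a median of 0.80. The list also holds Cyp1 and CG8336, matched by name, which encode cyclophilins and were not among the calls. Cyp6a2 had 46.1 and 83.6 FPKM in HP1b16 larvae, against 0.417 and 1.14 FPKM in yw larvae (log2 fold change 5.18, SE 0.36, adjusted p = 0.00703 from limma). Cyp6a23 had 244 and 387 FPKM in HP1b16 larvae, against 5.27 and 12.7 FPKM in yw larvae (log2 fold change 5.06, SE 0.45, adjusted p = 0.00936 from limma). Cyp9b2 and Cyp6a8 had log2 fold changes of 3.21 and 3.04. Of 33 glutathione S-transferases, 18 were higher and 0 lower. GstD7 had 21.6 and 45.2 FPKM in HP1b16 larvae, against 0.145 and 0.0736 FPKM in yw larvae (log2 fold change 4.87, SE 0.36, adjusted p = 0.00769 from limma), and GstD2 had 30.7 and 27.1 FPKM in HP1b16 larvae, against 1.69 and 1.76 FPKM in yw larvae (log2 fold change 3.45, SE 0.12, adjusted p = 0.00271 from limma). GstE6 and GstD10 had log2 fold changes of 3.28 and 2.90. Of 25 UDP-glycosyltransferases, 13 were higher and 1, CG17323, was lower at -1.70. CG5724, named Ugt37A2 in RefSeq, had 43.1 and 67.5 FPKM in HP1b16 larvae, against 0.350 and 0.570 FPKM in yw larvae (log2 fold change 5.24, SE 0.24, adjusted p = 0.00458 from limma). These 3 families lie partly in clusters of similar copies, and their values may share reads. P450 genes had 2 without HP1b16 replicate 2, 21 without HP1b16 replicate 1, 14 without yw replicate 1 and 35 without yw replicate 2 called higher, glutathione S-transferases 4 without HP1b16 replicate 2, 15 without HP1b16 replicate 1, 14 without yw replicate 1 and 18 without yw replicate 2, and UDP-glycosyltransferases 4 without HP1b16 replicate 2, 12 without HP1b16 replicate 1, 6 without yw replicate 1 and 13 without yw replicate 2.

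Glutathione synthesis moved with them. Gclc and Gclm, the subunits of the enzyme that makes the glutathione precursor, were both higher. Gclc had 63.5 and 78.5 FPKM in HP1b16 larvae, against 22.4 and 21.7 FPKM in yw larvae, and Gclm had 58.8 and 78.3 FPKM in HP1b16 larvae, against 23.1 and 22.1 FPKM in yw larvae. Prx2540-2, a peroxiredoxin, had 24.6 and 47.8 FPKM in HP1b16 larvae, against 2.05 and 2.72 FPKM in yw larvae (log2 fold change 3.39, SE 0.34, adjusted p = 0.0107 from limma), and Jafrac1, another, had a log2 fold change of 1.84. In all, 8 of 22 antioxidant and metal-binding genes were higher and 2 lower, with a median of 0.33 that was -0.05 under quantile normalization, where the median of all rows was -0.13. The lower ones, MtnA and MtnD, are metallothioneins, at -0.93 and -0.66. Of 30 subunits of the vacuolar ATPase, the proton pump of acidic organelles and of transporting epithelia, 16 were higher and 2 lower. Vha100-4 had 11.7 and 18.7 FPKM in HP1b16 larvae, against 0.972 and 1.36 FPKM in yw larvae (log2 fold change 2.87, SE 0.25, adjusted p = 0.00927 from limma). Log2 fold changes were 1.50 for Vha100-5, 1.46 for Vha100-2 and 1.37 for Vha68-2. Of the 13 subunits at 30 FPKM or more in yw, 12 were higher, and of the 17 under it 4 were higher and 2 lower. Among all rows, 23.3% at a 4-library mean of 30 to 100 FPKM were higher, and 33.7% at 100 FPKM or more. Under TPM the vacuolar list had 14 higher and 9 lower. Without HP1b16 replicate 2 the lists had 1 and 0 called higher.

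Muscle and cuticle genes were higher as well. Of 26 sarcomere genes, 18 were higher and 0 lower, with a median of 1.82. Mhc, the muscle myosin heavy chain, had 350.0 and 454 FPKM in HP1b16 larvae, against 27.7 and 46.4 FPKM in yw larvae (log2 fold change 3.44, SE 0.29, adjusted p = 0.00892 from limma). TpnC47D, a troponin C, had 337 and 583 FPKM in HP1b16 larvae, against 16.2 and 30.1 FPKM in yw larvae (log2 fold change 4.26, SE 0.40, adjusted p = 0.0104 from limma). TpnC25D and Mlc2, the regulatory myosin light chain, had log2 fold changes of 3.20 and 2.89. yw replicate 2 was above yw replicate 1 in 25 of the 26 genes. Of 125 members of the cuticle protein list, 64 passed the filter and were tested. Members under 1 FPKM in both yw libraries, such as Cpr67Fa1 and Cpr47Eg, passed only through their HP1b16 values, which favours higher calls. Of the 64, 36 were higher (56.25%, against 13.8% over all rows) and 4 lower (6.25%, against 7.82%). The higher ones include Cpr, matched by its symbol, which encodes the P450 reductase and not a cuticle protein. The summed level of the list was 62829.9 and 57872 FPKM in HP1b16 larvae, against 17928 and 30722 FPKM in yw larvae. Besides the 3 of the largest changes, Cpr49Af had 209 and 264 FPKM in HP1b16 larvae, against 2.11 and 2.74 FPKM in yw larvae (log2 fold change 6.11, SE 0.18, adjusted p = 0.0017 from limma). The lower ones, named outside the rule, were Pcp, Cpr49Ab, Cpr49Ac and Cpr65Ec, at -1.40, -1.52, -1.75 and -1.43. Sarcomere genes had 0 without HP1b16 replicate 2, 6 without HP1b16 replicate 1, 12 without yw replicate 1 and 20 without yw replicate 2 called higher, and cuticle proteins had 11 without HP1b16 replicate 2, 28 without HP1b16 replicate 1, 28 without yw replicate 1 and 37 without yw replicate 2. The sarcomere median lay 1.93 above that of all rows as reported, 1.91 under TPM and 1.48 under quantile normalization.

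Genes that ecdysone induces at the end of the instar were lower in part. Of 12 ecdysone early genes and nuclear receptors, 4 were lower and 1 was higher, with a median of -0.79. E23, an ecdysone-induced transporter of the ABC family, had 16.5 and 11.5 FPKM in HP1b16 larvae, against 45.6 and 36.4 FPKM in yw larvae (log2 fold change -1.50, SE 0.22, adjusted p = 0.0192 from limma). br, the Broad transcription factor of the larval to pupal switch, had 102 and 74.6 FPKM in HP1b16 larvae, against 188 and 233 FPKM in yw larvae (log2 fold change -1.25, SE 0.21, adjusted p = 0.0258 from limma). Eip75B, a nuclear receptor and early gene, had 38.6 and 28.1 FPKM in HP1b16 larvae, against 69.6 and 73.7 FPKM in yw larvae (log2 fold change -1.10, SE 0.19, adjusted p = 0.0252 from limma), and Hr39 had a log2 fold change of -0.74. The higher one was the nuclear receptor Hnf4, at 0.53, named outside the rule. Of 7 Imp and Eip effectors, ImpE2, ImpE1 and Eip63E were lower at -1.59, -1.33 and -0.51, and Eip55E, which encodes cystathionine gamma-lyase, was higher at 0.87. Only 3 of the 11 Eig71E late puff genes passed the filter, and 2 of the 3 were lower. Eig71Ee had 1819 and 1632 FPKM in HP1b16 larvae, against 3407 and 3459 FPKM in yw larvae (log2 fold change -0.99, SE 0.15, adjusted p = 0.0208 from limma), and Eig71Eg was at -1.59. Of 14 genes of ecdysteroid synthesis, shd, which makes the active hormone, was higher at 0.76 and kni was lower at -0.76. That is 7.14% in each direction, against 13.8% higher and 7.82% lower over all rows. None of the lower calls among the early genes held without HP1b16 replicate 2, and 3, 0 and 4 were called lower without HP1b16 replicate 1, yw replicate 1 and yw replicate 2. The Imp and Eip effectors had 0 lower calls without HP1b16 replicate 2, 2 without HP1b16 replicate 1, 0 without yw replicate 1 and 3 without yw replicate 2. Of the Eig71E genes 0 were called lower without HP1b16 replicate 1, 0 without HP1b16 replicate 2, 1 without yw replicate 1 and 2 without yw replicate 2.

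The glue genes of the salivary gland divided. Sgs7, the most abundant row of the yw libraries, had 24086 and 17008 FPKM in HP1b16 larvae, against 50182 and 41847 FPKM in yw larvae (log2 fold change -1.18, SE 0.25, adjusted p = 0.0406 from limma). Sgs3, Sgs4, Sgs5 and Sgs8 lay below 0 as well, from -0.79 to -0.55, without passing, whereas Sgs1 lay above 0 at 0.33 and did not pass either, with 139 and 144 FPKM in HP1b16 larvae, against 92.7 and 136 FPKM in yw larvae. The new-glue genes, which are expressed in the gland before the glue genes, were higher. ng1 had 35.0 and 56.2 FPKM in HP1b16 larvae, against 0.330 and 0.900 FPKM in yw larvae (log2 fold change 4.83, SE 0.30, adjusted p = 0.00585 from limma), and ng2 had 50.7 and 60.2 FPKM in HP1b16 larvae, against 3.77 and 2.15 FPKM in yw larvae (log2 fold change 3.86, SE 0.24, adjusted p = 0.00585 from limma). ng3 had 713 and 929.9 FPKM in HP1b16 larvae, against 94.9 and 195 FPKM in yw larvae (log2 fold change 2.57, SE 0.38, adjusted p = 0.0197 from limma). In the whole list 3 of 11 were higher and 1 lower, and under TPM 5 were lower. Without HP1b16 replicate 2, 1 was called higher and 0 lower.

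The larval serum proteins, which the fat body secretes in the third instar, could not be compared as fold changes. Lsp2, Lsp1beta and Lsp1gamma were listed at 0 in both HP1b16 libraries. In yw larvae Lsp2 had 7602 and 8239 FPKM, Lsp1beta 2348 and 3786 FPKM, and Lsp1gamma 2883 and 4243 FPKM. Lsp1alpha was at 4582 FPKM in HP1b16 replicate 1 and listed at 0 in replicate 2, against 713 and 1279 FPKM in yw. Fbp1, the receptor for serum proteins, was at 6481 FPKM in HP1b16 replicate 1 and listed at 0 in the other 3 libraries. In all, 11 rows were listed at 0 in a library and at 100 FPKM or more in another, and HP1b16 replicate 2 was at 0 in all 11. A pair of mitochondrially encoded rows that every cell uses was among them, at 5114 and 6894 FPKM in HP1b16 replicate 1 and at 0 in replicate 2, so a 0 there can be a failed estimate and says nothing of absence. Rfabg, which encodes the main lipoprotein of the fat body, had 802 and 1040.1 FPKM in HP1b16 larvae, against 295 and 423 FPKM in yw larvae (log2 fold change 1.37, SE 0.25, adjusted p = 0.0289 from limma). It was the 1 fat body marker measured above 0 in every library.

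**Figure D4:**
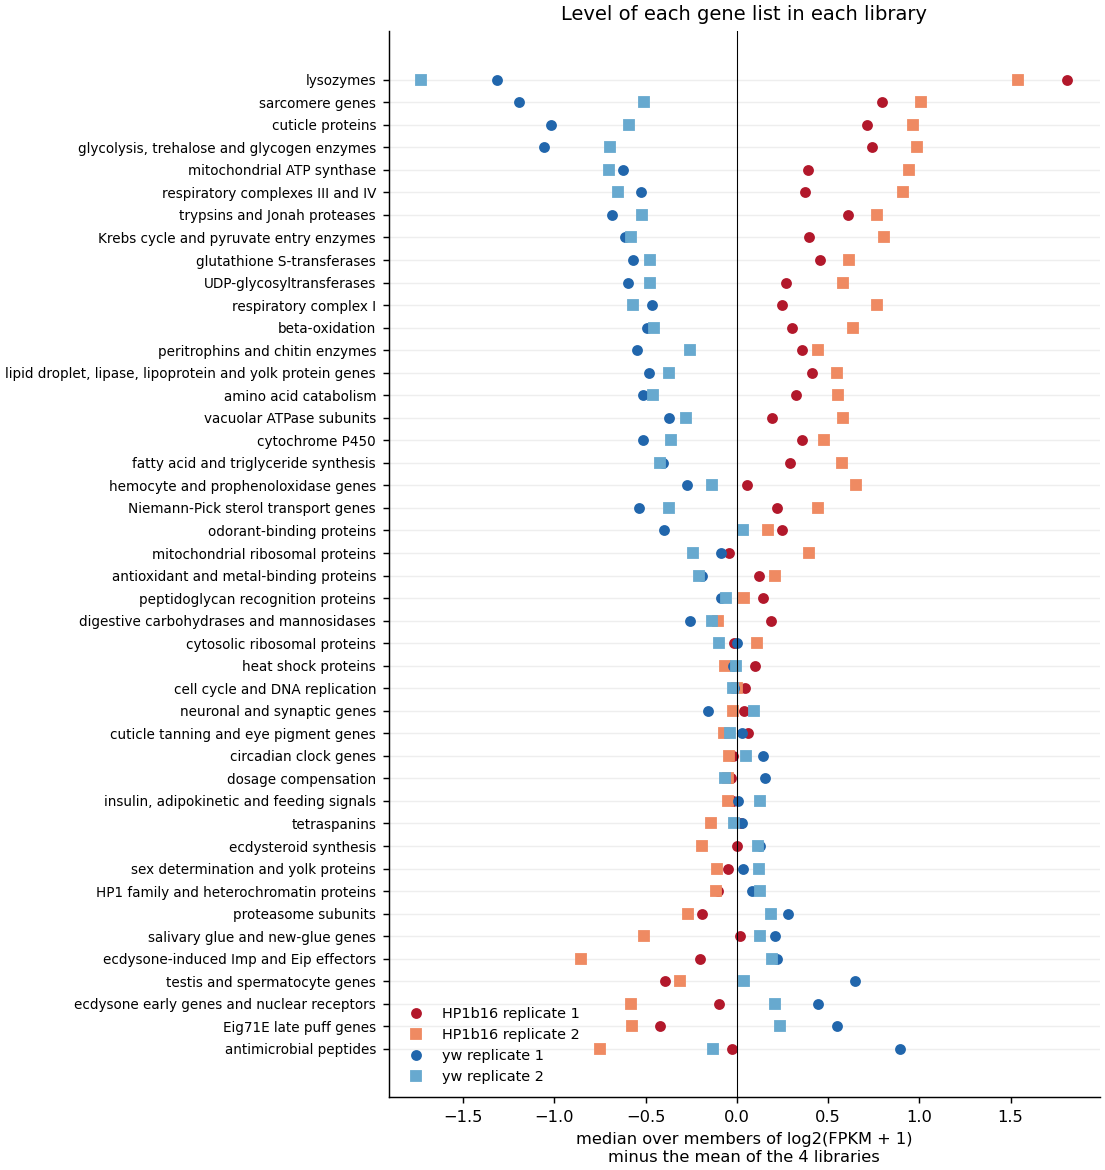
Median over the tested members of each gene list of log2(FPKM + 1) minus the mean of the 4 libraries (x axis), for HP1b16 replicates 1 and 2 (red, orange) and yw replicates 1 and 2 (blue). Both HP1b16 points lie right of both yw points in the metabolic, muscle, cuticle and detoxification lists, HP1b16 replicate 2 lies farther out than replicate 1 in most of these, and the serum protein list is left out because of its values at 0.

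Of 10 tested antimicrobial peptide genes, 3 were lower (30%, against 7.82% over all rows) and 0 higher. Beside Drs and Dpt, Mtk, the peptide metchnikowin, had 15.4 and 13.1 FPKM in HP1b16 larvae, against 46.4 and 40.1 FPKM in yw larvae (log2 fold change -1.54, SE 0.15, adjusted p = 0.0105 from limma). The summed level of the list was 323 and 127 FPKM in HP1b16 larvae, against 1950.0 and 630.3 FPKM in yw larvae. PGRP-LA, a peptidoglycan recognition protein, was the 1 of 9 that was called, at -1.03, or 11.1% lower, against 7.82% over all rows. Among 13 heat shock genes 5 were lower (38.5%) and 2 higher (15.4%). The share higher was near the 13.8% over all rows. The small heat shock genes Hsp23, Hsp26 and Hsp67Bc on 3L fell, with 938 and 589 FPKM in HP1b16 larvae, against 3713 and 2302 FPKM in yw larvae for Hsp23 (log2 fold change -1.97, SE 0.35, adjusted p = 0.0269 from limma), and -1.71 and -1.68 for the others. TotC, a humoral stress gene, and stv, a co-chaperone, were higher at 1.80 and 0.66. Among 12 hemocyte and prophenoloxidase genes 4 were higher (33.3%) and 1 lower (8.33%), against 13.8% and 7.82% over all rows. vkg and Cg25C, the 2 chains of collagen IV, were both higher. vkg had 50.2 and 106 FPKM in HP1b16 larvae, against 21.5 and 20.9 FPKM in yw larvae, and Cg25C had 87.9 and 178 FPKM in HP1b16 larvae, against 42.9 and 41.8 FPKM in yw larvae. In both, HP1b16 replicate 2 was well above replicate 1. Hml and atilla were higher at 1.16 and 1.53, and eater, a phagocytosis receptor, was lower at -0.84. Without HP1b16 replicate 2, 0 antimicrobial, 0 heat shock and 0 hemocyte genes were called in those directions.

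Of 23 insulin, adipokinetic and feeding genes, 2 were lower and 2 higher, or 8.70% in each direction, against 7.82% lower and 13.8% higher over all rows, so the list as a whole did not stand out. Thor, the translation inhibitor 4E-BP, had 630.4 and 501 FPKM in HP1b16 larvae, against 1328 and 1482 FPKM in yw larvae (log2 fold change -1.32, SE 0.18, adjusted p = 0.0167 from limma). Ilp6, an insulin-like peptide of the fat body, had 42.8 and 38.7 FPKM in HP1b16 larvae, against 92.5 and 99.1 FPKM in yw larvae (log2 fold change -1.22, SE 0.13, adjusted p = 0.0112 from limma). AkhR, the receptor of adipokinetic hormone, had 16.9 and 20.0 FPKM in HP1b16 larvae, against 10.7 and 11.1 FPKM in yw larvae (log2 fold change 0.70, SE 0.13, adjusted p = 0.0308 from limma), and Ilp5, a brain insulin-like peptide, had 5.27 and 4.85 FPKM in HP1b16 larvae, against 2.73 and 3.14 FPKM in yw larvae (log2 fold change 0.62, SE 0.13, adjusted p = 0.0372 from limma). The other 19 of the 23 genes did not pass, and under TPM 8 of the 23 were lower and 1 higher. Without HP1b16 replicate 2, 0 of these genes was called lower and 0 higher. Of 34 tested proteasome subunits, 7 were lower and 0 higher, and all 34 lay below 0 with a median of -0.45. Rpn6, a subunit of the regulatory particle, had 119 and 114 FPKM in HP1b16 larvae, against 205 and 185 FPKM in yw larvae (log2 fold change -0.74, SE 0.13, adjusted p = 0.0273 from limma), and Prosalpha4, Rpn10 and Rpn11 had log2 fold changes of -0.66, -0.64 and -0.64. The proteasome count was 32 under TPM, 30 under quantile normalization and 3 under median-ratio scaling, and it was 0, 0 and 0 without HP1b16 replicate 1, HP1b16 replicate 2 and yw replicate 1, and 2 without yw replicate 2.

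Among other HP1 family and heterochromatin genes, few passed. With HP1b counted, 11.1% of the list was lower, against 7.82% over all rows. Of 18 tested, 2 were lower and 0 higher, namely HP1b itself and HP1e, a germline paralog, with 0.734 and 0.850 FPKM in HP1b16 larvae, against 2.43 and 1.87 FPKM in yw larvae (log2 fold change -0.81, SE 0.17, adjusted p = 0.038 from limma). Su(var)205, the gene of HP1a, had 135 and 134 FPKM in HP1b16 larvae, against 164 and 153 FPKM in yw larvae (adjusted p = 0.207 from limma), and HP1c had 19.6 and 19.1 FPKM in HP1b16 larvae, against 26.1 and 25.0 FPKM in yw larvae (adjusted p = 0.0672 from limma). Both HP1b16 libraries were slightly below both yw libraries in each. In this list the median was -0.24, and 10 of 18 were lower under TPM. The cell cycle and DNA replication list had 0 of 31 called, with PCNA at 49.2 and 51.4 FPKM in HP1b16 larvae, against 49.7 and 44.8 FPKM in yw larvae, and 9 of 31 lower under TPM. The dosage compensation list had 0 of 6 called, with the male RNA roX1 at 93.0 and 84.4 FPKM in HP1b16 larvae, against 97.1 and 76.8 FPKM in yw larvae. Of 36 testis genes 1 was higher, bam, at 1.22, and 1 lower, schuy, at -0.84, with a list median of -0.69 and a summed level of 572 and 612 FPKM in HP1b16 larvae, against 1274 and 779 FPKM in yw larvae. Under TPM 21 testis genes were lower, as were 26 without yw replicate 2.

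Tanning and pigment genes went both ways, with 6 of 25 higher and 6 lower, or 24% each way, against 13.8% and 7.82% over all rows. Besides Ddc, b, the enzyme that makes beta-alanine, had 5.16 and 1.99 FPKM in HP1b16 larvae, against 18.6 and 11.5 FPKM in yw larvae (log2 fold change -1.87, SE 0.42, adjusted p = 0.0433 from limma). Dat, which acetylates dopamine, had 33.3 and 45.5 FPKM in HP1b16 larvae, against 7.45 and 10.9 FPKM in yw larvae (log2 fold change 1.99, SE 0.24, adjusted p = 0.0139 from limma), and yellow-f2 was at 1.99. Among 17 odorant-binding proteins, Obp83g, Obp56e and Obp83cd were higher at 4.06, 2.91 and 2.10, and Obp83ef was lower at -1.66. Those shares, 17.6% higher and 5.88% lower, were near the 13.8% and 7.82% over all rows. Of 25 tetraspanins 6 were higher (24%), led by Tsp42Eg, Tsp42Eq, Tsp42Ed and Tsp2A at 1.76, 1.22, 1.18 and 1.01. In that list 1 was lower (4%), and under TPM 9 were lower. Pdp1 was the 1 of 9 clock genes called, at 2.00, fru among the sex determination genes was at 1.78, and Gad1, which makes the transmitter GABA, was the 1 of 17 neuronal genes called, at 0.84. The shares called higher, 11.1% of clock and 5.88% of neuronal genes, were below the 13.8% over all rows. None of the tanning, tetraspanin or neuronal calls was made without HP1b16 replicate 2.

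**Figure D5:**
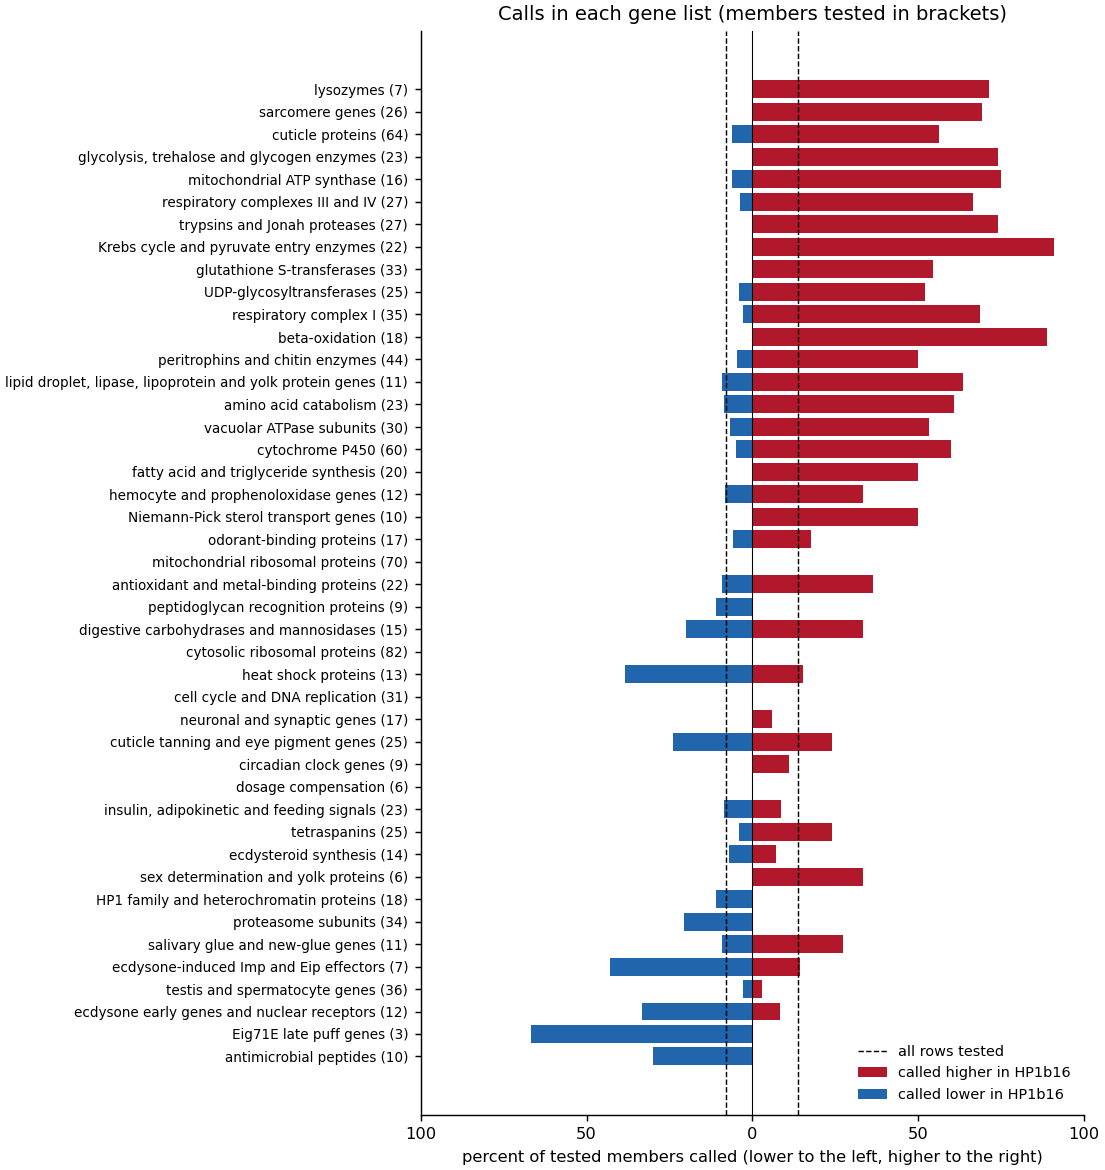
Percent of the tested members of each gene list (number in brackets) called higher (red, to the right) or lower (blue, to the left) in HP1b16 larvae, ordered by median log2 fold change, with dashed lines at 13.8% and 7.82% for all rows. The Krebs cycle and beta-oxidation lists reach the highest shares of higher calls, whereas both ribosomal protein lists have none.

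The markers of larval tissues moved unequally. All 5 muscle markers in the table were higher, and their summed level was 4430.3 and 5332 FPKM in HP1b16 larvae, against 854 and 1433 FPKM in yw larvae. Of 7 midgut markers 5 were higher and 0 lower, with sums of 5628 and 6203 FPKM in HP1b16 larvae, against 3093 and 3449 FPKM in yw larvae. Of 5 epidermal cuticle markers 3 were higher, with sums of 57052 and 51636 FPKM, against 12164 and 23898 FPKM. The salivary gland markers summed to 39488 and 27972 FPKM in HP1b16 larvae, against 73877 and 60795 FPKM in yw larvae, and 1 of 6 was called, lower. The 4 nervous system markers, with sums of 52.3 and 42.9 FPKM, against 50.4 and 67.9 FPKM, and the 5 testis markers, with 68.9 and 68.8 FPKM, against 168 and 90.9 FPKM, had 0 calls. Of the 4 disc markers Ubx was called, lower at -0.50. Among 4 hemocyte markers 1 was higher and 1 lower, and among 4 Malpighian tubule markers 2 were higher and 0 lower. The prothoracic gland and dosage compensation markers had 0 calls. Over all rows 13.8% were higher and 7.82% lower. The part of the tissue makeup in the gene lists above was not tested.

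The called genes lay on all chromosome arms of Release 6. The share called was 20.9% on 2L, 21.6% on 2R, 23.1% on 3L, 22.2% on 3R and 20.3% on X, the arm that carries HP1b. Chromosome 4, which is largely heterochromatic, had 81 tested rows, with 7 higher and 0 lower, or 8.64%. Its median log2 fold change was 0.00, against -0.10 over all rows. ATPsyn-beta and Rfabg were among its 7 higher genes.

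In a fit of all 6 libraries, 1 gene was called between HP1b16 and HP1b86 larvae, or 0.00919% of 10887 rows, and 864 rows had an unadjusted p under 0.05. The gene was Lsp2, listed at 0 in each HP1b16 library, against 16386 and 8705 FPKM in HP1b86 larvae (adjusted p = 0.00503 from limma). The same fit called 2 rows between HP1b16 and yw larvae, so it could show few differences of either kind. HP1b was at 0.121 and 0.0403 FPKM in HP1b86 larvae, against 2.55 and 3.13 FPKM in HP1b16 larvae (adjusted p = 0.211 from limma). This fit thus showed the differences between HP1b16 and yw larvae neither to be particular to HP1b16 nor to be shared. The paper, which tested each mutant against yw in its own way, reports genes that changed significantly in both.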

How the data were processed

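Total RNA of larvae of the third instar was sequenced. The authors deposited FPKM, which Cufflinks 2.2.1 estimated from alignments made by TopHat2 2.1.1 against dm3, after adapter trimming (Trim Galore 0.4.1) and demultiplexing (bcl2fastq 2.18.0.12), as named in the submitters' processing notes. The annotation, the use of strand and any further scaling between libraries are not given in the sources used here, and neither the reads behind a value nor their counting precision can be read from FPKM. Libraries were grouped by the strain label.

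Rows that averaged 1 FPKM or more across the 2 HP1b16 and 2 yw libraries were compared as log2(FPKM + 1) with limma 3.58.1 in R 4.3.3 (moderated variances with a mean trend, 2 residual and 2.61 prior degrees of freedom, two-sided), with Benjamini-Hochberg adjusted p over all 10887 rows and a threshold of 0.05. With 2 libraries a genotype, no SD is given. The scripts were tested on simulated data with independent noise, unlike the shared direction in which the replicates spread here. That test does not vouch for the calls in these data. The columns of other samples not used numbered 0. Symbols and chromosome arms came from RefSeq, Release 6, which matched 10236 of 10323 single-gene rows. Its build differs from dm3, so no coordinates are printed. The 564 tested rows that hold several overlapping genes share 1 value each, and genes that overlap or resemble another may share reads.

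The members and the 45 gene lists were chosen with earlier results of these data known, and 2 wrongly matched list entries were removed after their values were seen. Other wrong matches remain in the counts, namely Cpr in the cuticle protein list and Cyp1 and CG8336 in the P450 list. Genes were named by this rule: HP1b and its neighbours; the 10 higher and 10 lower single-gene rows with the largest called, non-overlapping change and no library at 0; rows at 0 in both libraries of 1 genotype and at 100 FPKM or more in both of the other; and up to 4 called members of a list by size of change, or the 2 most abundant where none was called. Genes named outside it, among them low paralogs and members called against their list's direction, were chosen after their values were seen. Alternatives were a pseudocount of 0.1, no filter, a mean of 5 FPKM, rows with zeros or several genes left out, TPM, median-ratio and quantile scaling, all 6 libraries, no trend, a replicate block and each library left out.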

Additional observations from a re-analysis of the deposited data

Results flagged for a closer look

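Lsp2, a larval serum protein gene of the fat body, was the 1 gene that differed between the HP1b alleles by the test of HP1b16 against HP1b86 in the fit of all 6 libraries (adjusted p = 0.00503 from limma). The deposited table lists it at 0 for HP1b16 replicates 1 and 2, against 16386 and 8705 FPKM in HP1b86 larvae and 7602 and 8239 FPKM in yw larvae. Since rows that every cell uses were also listed at 0 in HP1b16 replicate 2, no fold change is given.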

How the results depend on the processing

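As reported, 2351 rows were called, 1500 higher and 851 lower. With TPM 4867 were called, 3512 of them lower. Lower rows numbered 515 with median-ratio scaling and 1559 with quantile normalization. With all 6 libraries in 1 fit 2 were called, 1 higher (CG3292) and 1 lower (Lsp2), at the same log2 fold changes as reported. With 1 library left out, the rows called numbered 154 to 3187, the higher rows 144 to 1329 and the lower rows 10 to 1858. In those fits a lone library is assumed to vary like the other genotype.

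The replicate numbers of the labels are shared between genotypes without a source that pairs the libraries. A fit with the replicate block called 2083 rows, 1408 higher and 675 lower, of which 1887 were among the 2351. All other alternatives kept the 3 counts within 1.5 times.

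Of the 156 named genes called, 38 were called without HP1b16 replicate 2, 82 without yw replicate 1, 115 without HP1b16 replicate 1, 137 without yw replicate 2, 132 with no filter on low values and 1 with all 6 libraries. None of the 156 reversed, which the lack of overlap between the genotypes largely fixes. Genes near 0 and not called changed sign. TPM gave -0.14 for PCNA, -0.086 for RpLP1 and -0.20 for roX1, and median-ratio scaling gave 0.10 for RpS29, moves close to that of the median of all rows under the same scaling, which was -0.10 as reported, -0.32 under TPM and -0.01 under median-ratio scaling. Quantile normalization gave -0.13 for PCNA, -0.054 for RpLP1 and -0.33 for roX1. Without 1 library RpS29 lay between -0.084 and 0.073, mRpL33 between -0.011 and 0.52 and roX1 between -0.13 and 0.20. The cause of the moves under quantile normalization and without a library was not tested. Without read numbers in the table, the counting error of low values could not be given.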
